A study of Rattus norvegicus with 10 samples.

Results

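The prefrontal cortex (PFC) was set against the amygdala (AMY) in rat brain, using the 2 arrays labelled PFC and the 2 labelled AMY among the 10 arrays of the series. In each region 1 array came from cocaine-treated rats and 1 from saline-treated controls, and the other 6 arrays came from the caudate putamen (CPU), nucleus accumbens (NAcc) and ventral tegmental area (VTA). Strain, sex, age, dose, length of treatment and the number of rats per sample were not stated in the labels. Cocaine blocks the reuptake of dopamine, and all 5 regions hold dopamine neurons or receive their axons. Total RNA was measured as the dChip expression index, an intensity that is fitted over the probes of a probe set and is not scaled to transcript length, so levels are compared between arrays and not between genes.

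The PFC is a layered cortex in which most neurons are glutamatergic pyramidal cells, joined by several classes of GABA interneuron. The amygdala is a mixed structure. Its basolateral nuclei resemble cortex in their pyramidal-like neurons, while its central nucleus consists largely of GABA neurons that resemble those of the striatum and make peptides such as enkephalin. The amygdala also borders the striatum and a horn of the lateral ventricle, where the choroid plexus secretes cerebrospinal fluid.

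Before any gene is described, the 4 arrays themselves have to be. Over 5237 tested probe sets the PFC cocaine array correlated with r = 0.966 with the AMY saline array but with r = 0.952 with the other PFC array. The PFC saline array likewise correlated with r = 0.969 with AMY cocaine, and the AMY arrays with each other with r = 0.940. Exact zeros, treated as missing values, numbered 226 on PFC cocaine, 91 on AMY saline, 42 on AMY cocaine and 18 on PFC saline. The medians of the 4 arrays lay between 2213 and 2286. Across 5005 probe sets with all 4 values, the log2 ratio of PFC over AMY in the cocaine pair and that in the saline pair correlated with r = -0.330, and 34.1% of probe sets had the same sign in both. Most probe sets thus had opposite signs in the 2 pairs, and no label gives a batch that these arrays share. The results below rest on differences in which every PFC array lay on one side of every AMY array, and the matched pairs are given beside them.

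**Figure D1:**
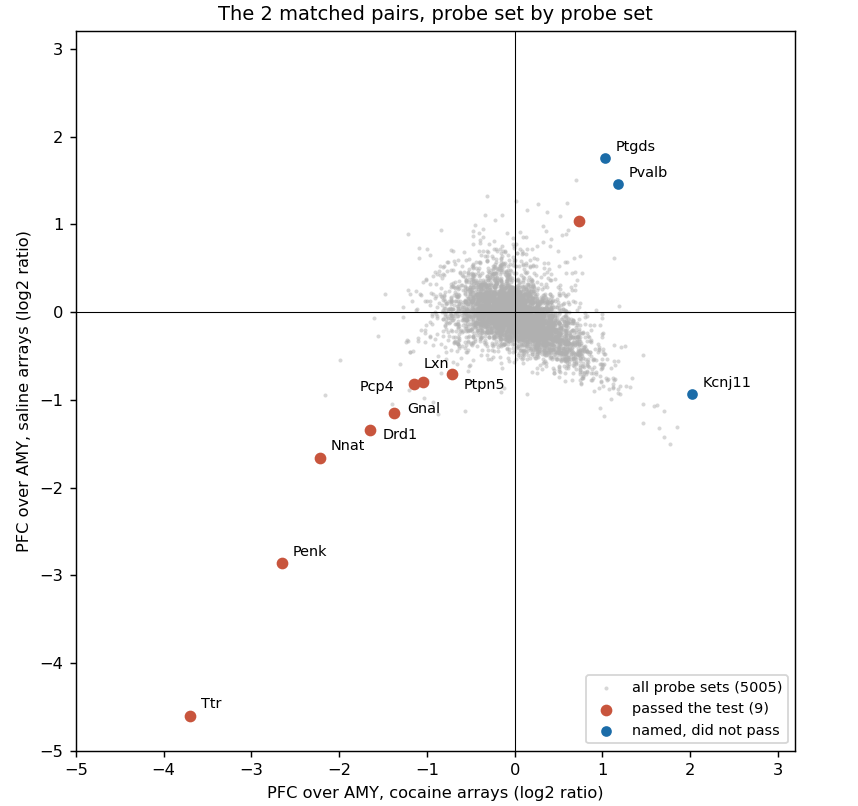
Log2 ratio of PFC over AMY on the cocaine arrays (x axis) and on the saline arrays (y axis) for 5005 probe sets, each point 1 probe set; red points passed the test, blue points are named but did not. The grey cloud slopes downward (r = -0.330), while the 9 red points have the same sign in both ratios, which the rule for a change requires, from Ttr at -3.70 and -4.60 to Ptpn5 at -0.71 and -0.71 among those higher in AMY.

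Genes of striatal-type neurons, a choroid plexus transcript and neuronatin were higher in the amygdala. A probe set counted as changed if its adjusted p in limma was under 0.05 and both PFC values lay above, or both below, both AMY values. By this rule 9 of 5237 probe sets changed, or 0.172%. Of these 8 were higher in AMY (0.153%) and 1 was higher in PFC (0.0191%), and 393 probe sets (7.50%) had an unadjusted p under 0.05. By order alone, without a test, both PFC values were the higher in 8.85% of 5005 probe sets and both AMY values in 17.9%. The 8 genes were Penk, Drd1, Gnal, Ptpn5, Pcp4, Nnat, Lxn and Ttr. The count depended on single arrays: it was 309 without AMY saline, 25 without AMY cocaine, 4 without PFC cocaine and 80 without both PFC cocaine and AMY saline. All 9 probe sets passed again in the fits without AMY saline, without AMY cocaine, or without both PFC cocaine and AMY saline. Some of the 9 did not pass in the fits that left out either PFC array alone. These fits reuse the same values with fewer pairs of arrays to hold, so they are not independent evidence. The lean toward AMY stayed in the fits that left out either PFC array alone. It was gone in the fits that left out either AMY array alone, or both PFC cocaine and AMY saline. The fit of the 4 arrays alone, with 1 residual degree of freedom, called 2, Penk and Ttr.

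Penk encodes proenkephalin, the precursor of the enkephalin opioid peptides, and showed the firmest difference. Its index was 2457 on PFC cocaine and 2462 on PFC saline, against 15372 on AMY cocaine and 17900 on AMY saline. The groups were far apart, with the lowest AMY value 6.24-fold above the highest PFC value, and the spread within either region was small beside the gap. The fitted difference of PFC minus AMY was -2.75 ± 0.10 on the log2 scale (SE), or 6.74-fold (limma adjusted p = 1.42e-05), and this was the only gene that passed under all 17 alternative settings. Penk was higher still in the striatum, at 27745 and 28595 in CPU and 20576 and 21566 in NAcc.

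Drd1, a dopamine receptor found on striatal neurons of the direct pathway, stood at 698 and 1081 in PFC and at 3228 and 2760 in AMY. Both AMY values were thus at least 2.55-fold above both PFC values, while CPU reached 10904 and 11001. The difference was -1.50 ± 0.11 (SE; limma adjusted p = 0.00144) with the PFC cocaine value raised to the floor of 1028 applied to low values, and -1.78 without that floor. A further tested Drd1 probe set had the same order, at 1150 and 1205 in PFC and 1908 and 1621 in AMY, but did not pass (limma adjusted p = 0.195).

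Gnal encodes the G protein subunit that couples the D1 receptor to adenylyl cyclase. Its index was 913 and 885 in PFC, both under the floor, and 2651 and 2279 in AMY, so its difference of -1.26 ± 0.13 (SE; limma adjusted p = 0.0129) is set by the floor and became -1.45 without it. It lost its call without either PFC array (adjusted p = 0.0791 and 0.0807) and with a floor at the 30th percentile (adjusted p = 0.0881).

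Ptpn5, the striatal-enriched tyrosine phosphatase, had values of 5178 and 5367 in PFC and 8473 and 8807 in AMY. The cocaine and saline arrays of each region lay close together, and the difference was -0.71 ± 0.09 (SE; limma adjusted p = 0.0278). Pcp4, a small calmodulin-binding protein, stood at 5861 and 7127 in PFC and at 13040 and 12561 in AMY, a difference of -0.99 ± 0.12 (SE; limma adjusted p = 0.0278). Both genes were most abundant in CPU, at 20262 and 20050 for Ptpn5 and 33583 and 32731 for Pcp4. For Penk, Drd1, Gnal, Ptpn5 and Pcp4 alike, the AMY arrays thus lay between the PFC arrays and those of both striatal regions.

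Nnat, an imprinted gene for a small membrane protein of neurons and endocrine cells, departed from this order. It had 5310 and 6452 in PFC, 24703 and 20394 in AMY, 25663 and 25926 in NAcc but only 8901 and 10373 in CPU, and was highest in VTA at 36142 and 35860. The difference between PFC and AMY was -1.94 ± 0.14 (SE; limma adjusted p = 0.00144). Lxn, which encodes the carboxypeptidase inhibitor latexin, had 2012 and 2262 in PFC and 4124 and 3928 in AMY, a difference of -0.92 ± 0.11 (SE; limma adjusted p = 0.0278). Its AMY values were the highest of the 10 arrays, with the other 3 regions between 2456 and 3607.

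**Figure D2:**
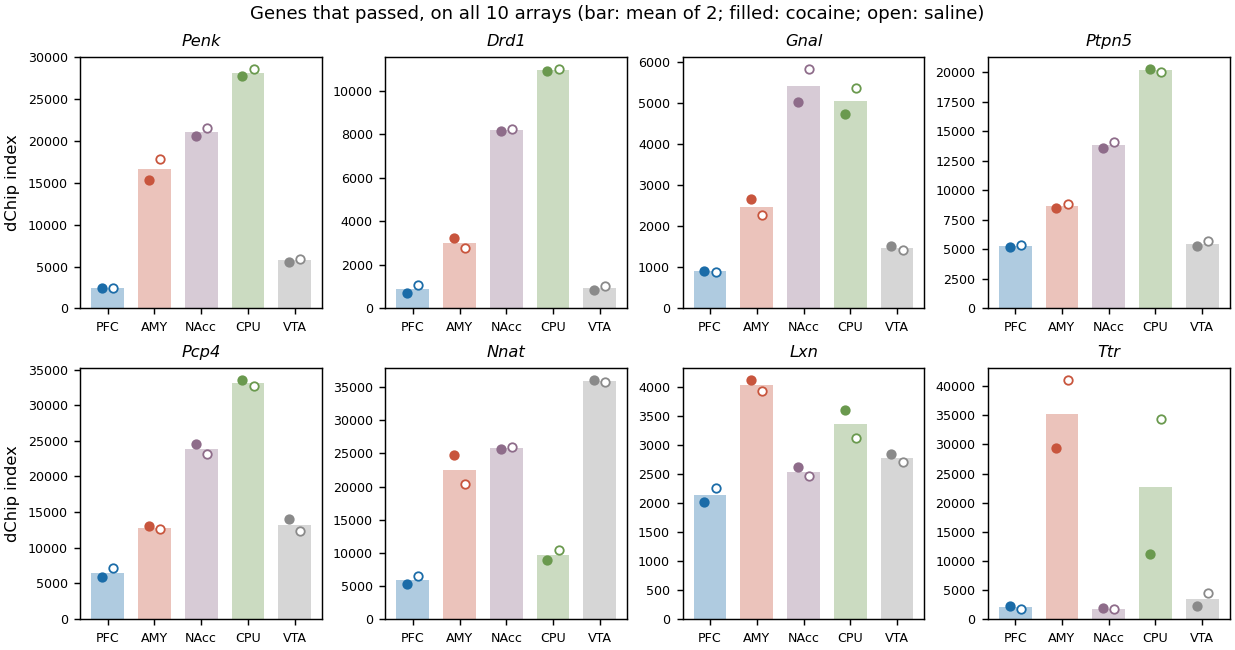
dChip index (y axis, from 0) of the 8 genes that passed, on all 10 arrays by region; bars are means of 2 arrays, filled points cocaine and open points saline. AMY lies between PFC and both striatal regions for Penk, Drd1, Gnal, Ptpn5 and Pcp4, Nnat is highest in VTA, Lxn is highest in AMY, and Ttr is also high on the CPU arrays, at 11221 and 34312.

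The list of striatal and central amygdala projection neuron genes held 17 measured members, of which 3 changed, Penk, Drd1 and Gnal, all higher in AMY. Members of this and the other lists were known from earlier results of these arrays, so their direction is not independent evidence. Among the 17, both AMY values were above both PFC values in 11 and the reverse held in 0, where over all 3093 genes with a value on every array the shares were 17.9% and 8.76%. The median difference of the list was -0.39, with -0.47 in the cocaine pair and -0.48 in the saline pair, against -0.01 over all genes. It was smaller on further probe sets. Over the 5 genes that had one, the median was -0.13 on the further probe set and -0.40 on the most abundant. Without the 3 genes that changed, 8 of 14 kept that order and the median was -0.31. Rgs9, which shortens G protein signals in striatal neurons, had 2695 and 2087 in PFC and 4015 and 4581 in AMY, and Adora2a, the adenosine receptor of the indirect pathway, had 3431 and 3301 against 4968 and 5270. Both were chosen for mention after their values were seen or as defining markers, and neither passed (limma adjusted p = 0.0833 and 0.119). Pdyn, the dynorphin precursor of direct-pathway neurons, differed by 0.02 ± 0.11 (SE), with 10191 and 8853 in PFC and 9006 and 9687 in AMY. In bulk tissue, fewer cells of a type and less RNA per cell cannot be told apart, and the part of neighbouring striatal tissue in these values was not tested.

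Neuropeptide and secretory genes formed the next group. Of 23 measured members, 1 changed, Penk, while 9 had both AMY values above both PFC values and 3 the reverse. The shares over all genes were 17.9% and 8.76%. The median difference was -0.02, near that of all genes. Tac1, the precursor of substance P, had 1155 and 1657 in PFC and 5158 and 3211 in AMY. Its AMY cocaine value stood well above the saline one, and the difference of -1.56 ± 0.23 (SE) did not pass (limma adjusted p = 0.0716). Another Tac1 probe set was listed at 0 on PFC cocaine and AMY saline. Resp18, a protein of endocrine secretory granules, had 3780 and 4112 against 8686 and 7610, with another probe set in the same order, and Scg2, the granin secretogranin II, had 1306 and 1743 against 3247 and 2632. Neither passed (limma adjusted p = 0.0645 and 0.195). The somatostatin gene Sst, with 8840 and 10091 in PFC and 13294 and 10774 in AMY, had log2 ratios of -0.59 in the cocaine pair and -0.09 in the saline pair.

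Scg2 and Tac1 are shown with the bases before their annotated starts because, among 15 genes looked up, they held a cyclic AMP response element or a variant of it. Promoters were taken from RefSeq (GRCr8) for the genes that changed, the markers of the comparison and those at least 1.5-fold apart on every pair of arrays. Of 20 such genes, 15 had an entry, and Cck, Enpp2, Nnat, Nrn1 and Penk had none. The 250 bases before the start were searched on both strands for TGACGTCA, which is its own reverse complement, and for TGCGTCA. The first was found in 1 of the 15 and in 1.70% of all 27457 promoters in the table, and TGCGTCA also in 1 of the 15 and in 1.84% of all. Both windows are written 5′ to 3′ on the strand of the gene with the match in capitals, Scg2 on the minus strand at chr9:88256867-88257116 and Tac1 on the plus strand at chr4:36645333-36645582. A match of letters is not a measured binding site.
Scg2: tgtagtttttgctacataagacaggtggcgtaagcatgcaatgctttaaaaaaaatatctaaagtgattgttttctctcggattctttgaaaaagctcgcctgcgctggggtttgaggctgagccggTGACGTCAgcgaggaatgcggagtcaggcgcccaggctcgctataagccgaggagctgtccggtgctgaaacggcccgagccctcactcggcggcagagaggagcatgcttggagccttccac
Tac1: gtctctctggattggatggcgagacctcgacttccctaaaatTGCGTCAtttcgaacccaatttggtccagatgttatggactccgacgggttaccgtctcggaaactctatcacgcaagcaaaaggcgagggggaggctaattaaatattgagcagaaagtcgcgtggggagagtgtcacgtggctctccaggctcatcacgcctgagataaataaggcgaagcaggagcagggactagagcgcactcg

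Because so few probe sets passed, those in which every PFC array differed from every AMY array by at least 1.5-fold are also described, a rule chosen after the values were seen and carrying no test. Of 5005 probe sets with all 4 values, 18 were higher in AMY (0.360%) and 6 higher in PFC (0.120%). The 18 comprised 14 named genes, the 8 that changed with Tac1, Resp18, Scg2, Gda, Enpp2 and Hpcal1. The 6 comprised 4 named genes, Ptgds, Pvalb, Homer1 and Slc24a2. Of the other probe sets, 1 in each direction had no gene symbol and 1 higher in PFC carried several symbols. The last is the probe set that passed in limma, with 40843 and 45655 in PFC against 24544 and 22258 in AMY (0.89 ± 0.10, SE; limma adjusted p = 0.0263), and it is left unnamed. It did not pass without PFC cocaine (adjusted p = 0.0730), without PFC saline (adjusted p = 0.155) or under median scaling (adjusted p = 0.0533).

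**Figure D3:**
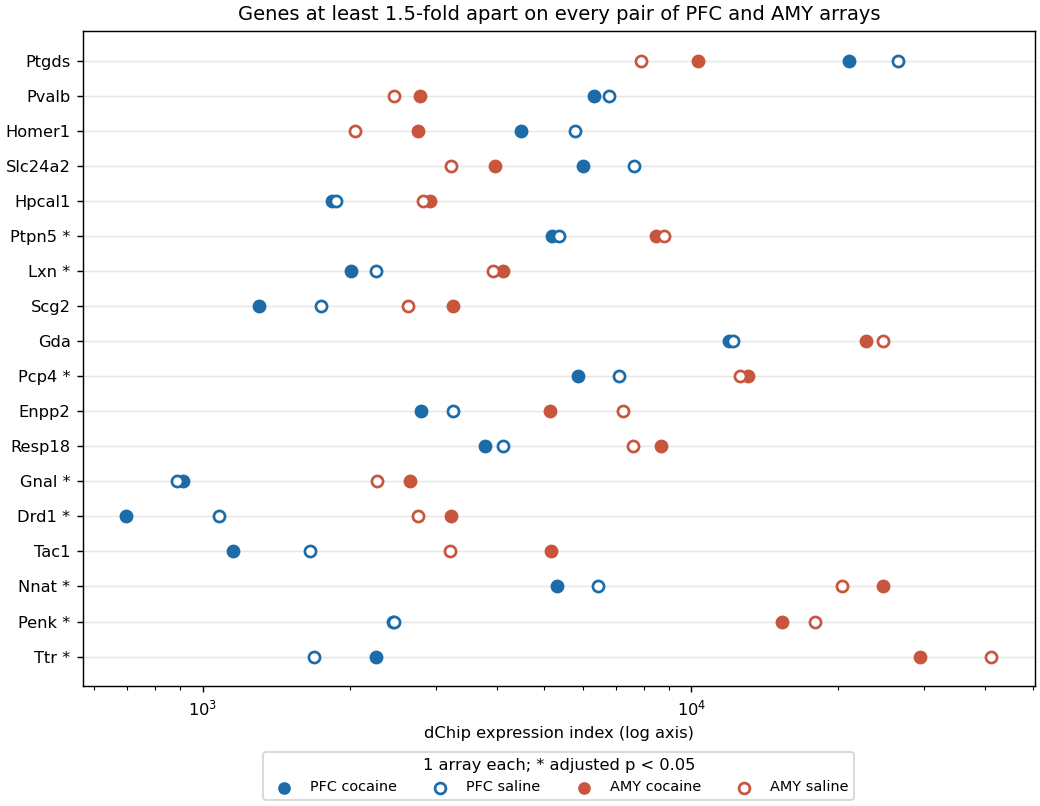
dChip index (x axis, log scale) on the 4 PFC and AMY arrays for the 18 named genes at least 1.5-fold apart on every pair of arrays; blue is PFC, red AMY, filled cocaine, open saline, and a star marks an adjusted p under 0.05. The widest separation is that of Ttr, whose lowest AMY value is 13.0-fold above its highest PFC value, and on the PFC side that of Pvalb, at 2.26-fold.

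Ttr, the thyroid hormone carrier transthyretin, is the most abundant secreted product of the choroid plexus. It stood at 2262 and 1692 in PFC and at 29441 and 41154 in AMY, a difference of -4.15 ± 0.42 (SE; limma adjusted p = 0.0129). Its second probe set was listed at 0 on both AMY arrays and at 494 and 609 in PFC, under the filter. Of the 16 measured choroid plexus and ependyma genes 1, Ttr, changed, where 0.172% of all probe sets did. An unadjusted p under 0.05 was found for 4, against 7.11% of all genes. Both AMY values were higher in 5 and both PFC values in 2, beside 17.9% and 8.76% of all genes. Enpp2, the lysophospholipase autotaxin made by choroid plexus and oligodendrocytes, had 2802 and 3259 in PFC and 5128 and 7267 in AMY on its more abundant probe set (limma adjusted p = 0.120). Other defining markers were not higher on both AMY arrays: Kl had 3401 and 3526 against 3837 and 3383, and Aqp1 had 4618 and 4563 against 4244 and 4495. Summed over the 15 members other than Ttr, the index was 84737 and 88877 in PFC and 85154 and 80290 in AMY, and their median difference was -0.02. Among these 15, both AMY values were higher in 4 and both PFC values in 2. The part of choroid plexus tissue in the Ttr difference was not tested.

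Gda, guanine deaminase, which also shapes dendrites by binding tubulin, had 11945 and 12168 in PFC and 22798 and 24751 in AMY on its most abundant probe set. Its pairs were alike, with log2 ratios of -0.93 and -1.02, and a further probe set agreed at -1.03 and -0.98, but neither passed (limma adjusted p = 0.0904 and 0.138). Another, dimmer Gda probe set, not tested, overlapped between regions, at 1470 and 1503 against 1491 and 1435. NAcc reached the AMY level, at 23242 and 23236. Hpcal1, a neuronal calcium sensor, had 1843 and 1877 in PFC against 2915 and 2830 in AMY (limma adjusted p = 0.119).

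On the PFC side, excitatory neuron genes had small differences. Cck, the cholecystokinin precursor, stood at 27640 and 28113 in PFC and 18366 and 20542 in AMY, and Nrn1, which promotes neurite growth, at 9186 and 9850 against 6541 and 6120. The order held on every array for both, yet the differences of 0.52 ± 0.26 and 0.59 ± 0.16 (SE) did not pass (limma adjusted p = 0.739 and 0.343). Cck and Nrn1 were both lower in the striatum than in AMY. Cck had 7238 and 5707 in CPU and 11048 and 11180 in NAcc, and Nrn1 had 2423 and 2239 in CPU and 2728 and 2846 in NAcc. Of 11 measured genes of cortical and pyramidal excitatory neurons 0 changed in limma and 4 had an unadjusted p under 0.05, against 7.11% of all genes. Both PFC values were the higher in 8 of the 11 and both AMY values in 1, beside 8.76% and 17.9% of all genes. The median was 0.27, with 0.20 in the cocaine pair and 0.19 in the saline pair. Nrgn, the postsynaptic calmodulin-binding protein neurogranin, had 39827 and 38428 in PFC and 28103 and 33584 in AMY. The calcium sensor Vsnl1, chosen after its values were seen, had 10778 and 13096 against 9400 and 7928. Of the defining markers, Slc17a7 and Camk2a were under the filter, with Slc17a7 between 1277 and 1690 on the 4 arrays.

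The inhibitory neuron genes went both ways. Pvalb, the calcium buffer of fast-spiking interneurons, had 6311 and 6775 in PFC and 2790 and 2464 in AMY, at least 2.26-fold apart on every pair of arrays. Its difference of 1.32 ± 0.27 (SE) did not pass (limma adjusted p = 0.158) and Pvalb was also high on 1 VTA array, at 5166. In the opposite direction, Gad1, which makes GABA, had 4245 and 5857 in PFC and 9106 and 7219 in AMY, and Slc32a1, which loads GABA into vesicles, had 2602 and 3271 against 4904 and 4061. Calb2, the buffer calretinin, chosen after its values were seen, had 2077 and 2529 against 3658 and 2945. For Gad1, Slc32a1 and Calb2 the cocaine pair differed more than the saline pair, with log2 ratios of -1.10, -0.91 and -0.82 against -0.30, -0.31 and -0.22. Gad2, the other GABA-making enzyme, had 5329 and 3304 against 3148 and 5841, with no order between regions. Of 15 members 0 changed in limma and 4 had an unadjusted p under 0.05, against 7.11% of all genes. Both AMY values were higher in 7 and both PFC values in 1, beside 17.9% and 8.76% of all genes, and the median was -0.13.

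Receptors and channels were counted beside the same shares over all genes, 17.9% with both AMY values higher and 8.76% with both PFC values higher. The share of all genes with an unadjusted p under 0.05 was 7.11%. Of 42 measured receptors for monoamines, acetylcholine, opioids and other peptides, 1 changed, Drd1, and the median was 0.00, with 9 higher on both AMY arrays and 4 on both PFC arrays. Among 30 genes of glutamate receptors and the postsynaptic scaffold 0 changed in limma and 3 had an unadjusted p under 0.05, with a median of -0.01. Gria1, an AMPA receptor subunit, had 3662 and 4110 in PFC and 5722 and 5027 in AMY, and its other tested probe sets kept that order. A probe set of the scaffold gene Homer1 had 4476 and 5794 in PFC against 2755 and 2052 in AMY, while the most abundant Homer1 probe set stood at 4572 and 5497 against 2925 and 4511. On another Homer1 probe set the regions overlapped, at 3320 and 4775 against 2528 and 3391, so both the size and the order varied with the probe set. Of 11 GABA receptor genes 0 changed (1 at an unadjusted p under 0.05) and the median was -0.04. Gabra2 had 3332 and 3183 against 4451 and 3659. Of 29 channel genes 0 changed (2 at an unadjusted p under 0.05) and the median was 0.03. Kcnab2, a potassium channel beta subunit, had 9437 and 9467 in PFC and 6863 and 7272 in AMY (limma adjusted p = 0.190), but another probe set of it showed no such order. Slc24a2, a sodium, calcium and potassium exchanger, had 6012 and 7633 against 3968 and 3230 (limma adjusted p = 0.190).

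Among 49 genes of calcium, protein kinase C and cyclic AMP signalling, 2 changed, Gnal and Pcp4. Both AMY values were higher in 18 and both PFC values in 6, with a median of -0.13, and 14 had an unadjusted p under 0.05. The matching shares over all genes were 17.9%, 8.76% and 7.11%. The following were chosen after their values were seen. Rgs4, which shortens G protein signals in cortical neurons, had 8373 and 10213 in PFC and 3815 and 6639 in AMY (limma adjusted p = 0.375). Camk2d, a calmodulin kinase subunit, had 1298 and 2058 against 5144 and 3005 (limma adjusted p = 0.220). In both genes the AMY arrays lay far apart from each other, and neither difference passed. The phosphodiesterase gene Pde2a had 4890 and 6477 against 9485 and 7922 (limma adjusted p = 0.255).

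Genes of neurite growth, the cytoskeleton and neurotrophins numbered 51, of which 0 changed in limma and 11 had an unadjusted p under 0.05. Both PFC values were higher in 12 and both AMY values in 8, beside 8.76% and 17.9% of all genes. An unadjusted p under 0.05 was found for 7.11% of all genes. Nefm, a neurofilament subunit, had 5725 and 7511 in PFC against 4461 and 3959 in AMY (limma adjusted p = 0.417). Gap43, a growth cone protein, and Rtn1, a neuronal reticulon, both chosen after their values were seen, had the opposite order, with Gap43 at 9512 and 10179 against 12261 and 13713 and Rtn1 at 14148 and 18394 against 25266 and 23539. Among 37 synaptic vesicle and release genes 0 changed in limma (2 at an unadjusted p under 0.05), and 6 had each order, for a median of 0.01.

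**Figure D4:**
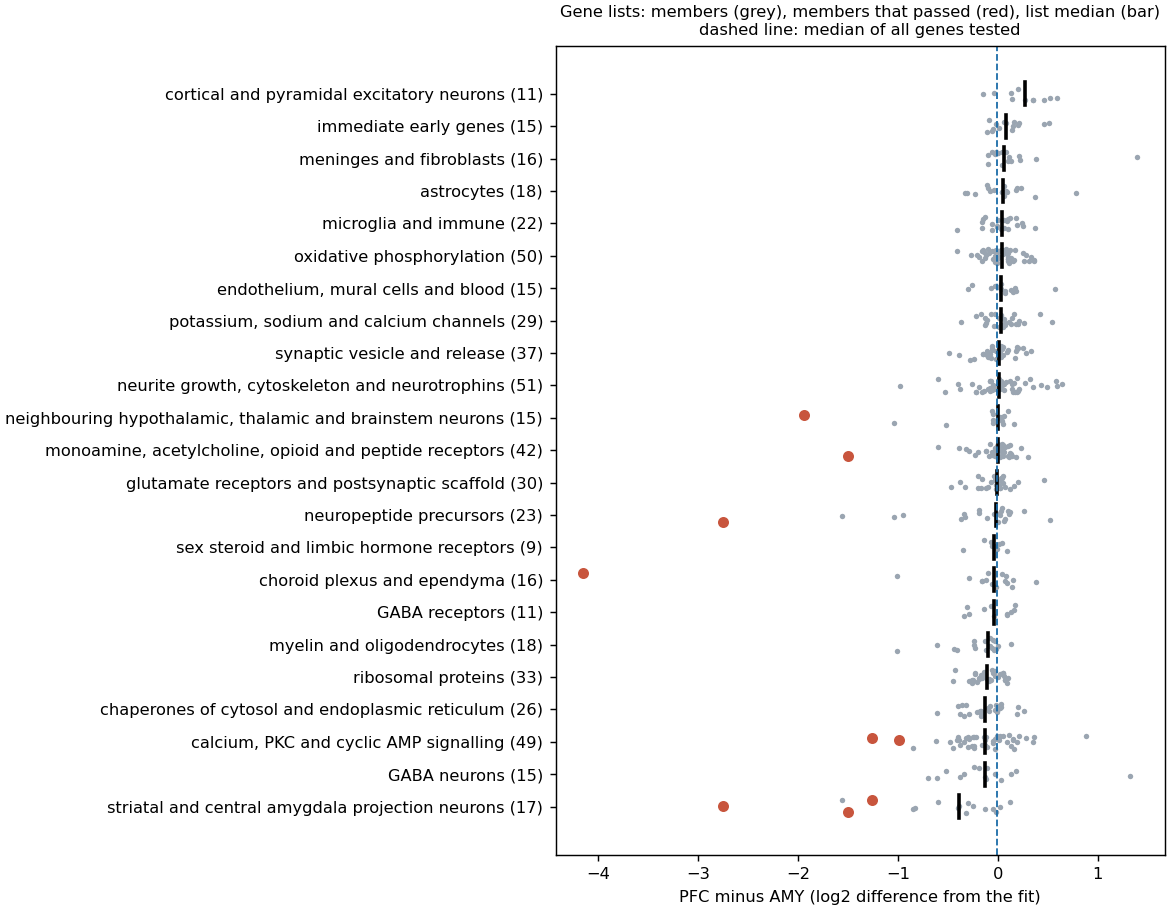
Log2 difference of PFC minus AMY from the fit (x axis) for the members of 23 gene lists, with the number measured in parentheses; grey points are members, red points members that passed, black bars list medians, and the dashed line the median of all genes at -0.01. The medians run from -0.39 for striatal and central amygdala genes to 0.27 for excitatory neuron genes, and every red point lies on the AMY side.

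Glial lists held no gene that changed. The share of all genes with an unadjusted p under 0.05, to set beside the counts below, was 7.11%. Of 18 myelin and oligodendrocyte genes 0 changed in limma (4 at an unadjusted p under 0.05), and 7 had both AMY values higher against 1 with both PFC values higher, beside 17.9% and 8.76% of all genes. Their median was -0.10, with 16 differences below 0 and 1 above. Over the 7 genes with a further probe set, the median was -0.30 on that probe set and -0.24 on the most abundant. Mobp, a myelin-associated protein of oligodendrocytes, had 9629 and 13696 in PFC and 16564 and 18647 in AMY, and its 3 other tested probe sets kept that order. The defining markers Mbp, at 36194 and 36779 against 35205 and 42482, and Mog, at 4424 and 4101 against 4190 and 4655 on its more abundant probe set, overlapped between regions. The other Mog probe set did not overlap, at 1626 and 1965 against 2624 and 2485 (limma adjusted p = 0.222). Of 18 astrocyte genes 0 changed (4 at an unadjusted p under 0.05), with a median of 0.05. Both AMY values were higher in 4 of them and both PFC values in 3, beside the same 17.9% and 8.76%. Vim, an intermediate filament of immature and reactive astrocytes and of vessels, had 1567 and 2305 against 872 and 1199. Glul, glutamine synthetase, had 32243 and 38698 against 27818 and 26703, with log2 ratios of 0.21 in the cocaine pair and 0.54 in the saline pair. Another Glul probe set overlapped between regions, at 17028 and 23174 against 17308 and 13582, while further ones kept the order. The glutamate transporters Slc1a2 and Slc1a3 differed by 0.08 and -0.10 on their most abundant probe sets. Of 22 microglia and immune genes 0 changed (1 at an unadjusted p under 0.05), with a median of 0.04. Of these 22, 12 differences were above 0 and 9 below. Ctss, a lysosomal protease of microglia, had 9748 and 13304 against 14893 and 15394. RT1-Da had the opposite order, at 3309 and 2399 against 2025 and 2363, on its probe set with a value on every array. The defining markers Aif1, at 6652 and 6408 against 6624 and 4979, and C1qb, at 4977 and 4430 against 4666 and 5168, overlapped between regions.

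A blood and a meningeal transcript had higher values on both PFC arrays, though neither passed. The globin gene Hbb had 40566 and 41706 against 25184 and 30364 on a probe set annotated with its symbol alone (limma adjusted p = 0.220). Of 15 genes of endothelium, mural cells and blood 0 changed in limma (1 at an unadjusted p under 0.05) with a median of 0.03, and their index summed without Hbb was 52358 and 46421 in PFC against 45499 and 54162 in AMY. Ptgds, the prostaglandin D synthase of meninges and choroid plexus, had 21064 and 26517 in PFC and 10310 and 7886 in AMY (limma adjusted p = 0.222), while NAcc saline reached 28155. Among 16 genes of meninges and fibroblasts 0 changed in limma (2 at an unadjusted p under 0.05, against 7.11% of all genes). Both PFC values were higher in 5 of the 16 and both AMY values in 2, beside 8.76% and 17.9% of all genes. Without Ptgds the summed index overlapped between regions, at 62576 and 55725 against 53897 and 60301. The part of blood and meninges in the PFC differences was not tested.

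Transcripts of neighbouring hypothalamic, thalamic and brainstem neurons, 15 measured, held 1 that changed, Nnat, where 0.172% of all probe sets did. Their median was 0.00, and 3 had an unadjusted p under 0.05, against 7.11% of all genes. Both AMY values were higher in 3 and both PFC values in 2, beside 17.9% and 8.76% of all genes. The summed index was 53020 and 50096 in PFC and 74073 and 71534 in AMY, and Nnat alone gave most of that gap. Hcrt, the orexin precursor of the hypothalamus, had 3620 and 2862 in PFC and 2738 and 3478 in AMY, and Th, which makes dopamine, 2884 and 2646 against 2599 and 2848, so these markers overlapped. Avp, the vasopressin precursor, did not overlap, at 4155 and 4070 against 3784 and 3901 (limma adjusted p = 0.976).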

How the data were processed

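Rat brain RNA of 5 regions was measured on 10 oligonucleotide arrays, 1 for cocaine and 1 for saline in each. The deposited values are dChip expression indices, intensities on a linear scale, per the labels; dChip's version, model and scaling: not given in the sources used here. Of 8799 probe sets, 59 were controls and were dropped. GEO's platform annotation gave 1 symbol for 7006 of the remaining 8740, several for 308 and none for 1426, and 6985 of the single symbols were found unchanged in the current gene table. Zeros (593 values) were treated as missing. Values under 1028, the 20th percentile of those above 0, were raised to it before log2, and the upper 60% by mean index were tested.

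PFC minus AMY was fitted with limma 3.58.1 in R 4.3.3 over all 10 arrays, with region and treatment as terms (4 residual degrees of freedom), an intensity trend, and Benjamini-Hochberg adjustment over all probe sets. The code was tested on simulated data. The arrays alone could not give an exact permutation p under 0.333 with 2 against 2. Nothing in the labels ties the samples to separate animals, so p-values measure only the spread between these samples, which may be technical, and the number of arrays limits precision. A list gene's value is that of its most abundant probe set having a value on every array.

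Named were the 12 largest changes in each direction, the markers Cck, Nrn1, Penk, Ttr and Gda (all chosen on these samples), up to 4 changed members of each list or, where 0 changed, the 2 largest differences, defining markers, and other probe sets of these genes. Members, lists and rules were chosen with earlier results of these data known. Alternatives covered zeros, floor, filter, scaling, samples, model terms and leaving out arrays.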

Additional observations from a re-analysis of the deposited data

Results flagged for a closer look

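For 6 named genes the PFC over AMY log2 ratios of the cocaine and saline pairs had opposite signs, each at least 0.3 in size. Opposite signs alone were common, since only 34.1% of 5005 probe sets had the same sign in both pairs. Other named genes had opposite signs with a smaller ratio in at least 1 pair. With 1 array per region and treatment, these differences between treatments were not tested. Kcnj11, the pore of a potassium channel gated by ATP, had a log2 ratio of 2.02 with cocaine and -0.94 with saline, from 21898 and 7269 in PFC and 5410 and 13907 in AMY, while its other tested probe set had 0.03 and 0.30. The immediate early gene Egr1 had -0.31 and 1.32 on its most abundant probe set. Other tested Egr1 probe sets had -0.34 and 1.11, -0.14 and 0.32, and, with the signs reversed, 0.48 and -0.54. Vwf, the von Willebrand factor of endothelium, had 1.12 and -0.87, Gad2 0.76 and -0.82, Dcn, a proteoglycan of fibroblasts, 0.78 and -0.52, and Pomc 0.50 and -0.41. Of 130 probe sets that differed by at least 1.5-fold in both pairs, 102 had opposite signs and 28 the same sign.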

How the results depend on the processing

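The number of probe sets that passed, 9, became 4 with zeros raised to the floor, 4 with no filter, 5 under median scaling (0 higher in PFC and 5 in AMY), 2 with the 4 arrays alone, 80 without PFC cocaine and AMY saline, and 23 with a block that crossed the pairs (PFC cocaine with AMY saline), a setting chosen after seeing the data. Leaving out 1 array gave 4 to 309. It stayed within 1.5 times of 9 under the other settings. The counts at 1.5-fold on every pair, 6 higher in PFC and 18 in AMY, ranged from 9 to 70 and from 23 to 74 with 1 array left out and were 120 and 44 without both arrays, where fewer pairs have to hold. They were 29 and 56 with a lower fold threshold and 2 and 5 at 2-fold, thresholds chosen after seeing the data. No called gene changed direction under the 17 settings. Penk passed in all 17, Drd1 in 16, Nnat and Ttr in 15, Pcp4 in 12, Gnal and Lxn in 11 and Ptpn5 in 10, and the unnamed probe set higher in PFC also in 10. The causes were not tested. The medians of the striatal list lay between -0.46 and -0.13 and of the excitatory list between 0.20 and 0.35 over 18 settings.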

Other observations

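The amygdala is known as a target of sex steroids. Of 9 measured genes of sex steroid and limbic hormone receptors 0 changed in limma, where 0.172% of all probe sets did, 1 had an unadjusted p under 0.05 and the median was -0.04. Esr1, an oestrogen receptor, had 3333 and 3133 in PFC and 3261 and 3491 in AMY, and Oxtr, the oxytocin receptor, 2658 and 2601 against 3012 and 2778. Thra, a thyroid hormone receptor, had 8529 and 12170 against 10544 and 15916, with both cocaine arrays under the saline array of their region, and 2 further Thra probe sets differed by 0.12 and 0.13 in the other direction. Immediate early genes, 15 measured, had 0 that changed in limma and 1 with an unadjusted p under 0.05, against 7.11% of all genes. Their median was 0.08, with 0.29 in the cocaine pair and -0.23 in the saline pair, where all genes had 0.03 and -0.07. Such a split was not particular to this list, since genes of endothelium, mural cells and blood had 0.24 and -0.21. Arc had 8417 and 7550 in PFC and 7377 and 6957 in AMY, and Fos 9778 and 8490 against 8899 and 10904.

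Ribosomal protein genes were lower on both PFC arrays than on both AMY arrays in 10 of 33 and higher in 0, beside 17.9% and 8.76% of all genes, with medians of -0.27 in the cocaine pair and -0.03 in the saline pair. Rpsa had 13096 and 15775 in PFC against 19456 and 19928 in AMY and Rpl3 15161 and 19824 against 21872 and 25102, and 0 of the 33 changed in limma (3 at an unadjusted p under 0.05). Of 50 oxidative phosphorylation genes 0 changed (3 at an unadjusted p under 0.05), 8 had both AMY values higher and 0 both PFC values, beside the same 17.9% and 8.76%, and the median was 0.04. Ndufb10, of complex I, had 4073 and 4790 against 6161 and 5613, while Ndufb3, of the same complex, had 11766 and 15628 against 7698 and 14500. Of 26 chaperone genes 0 changed (4 at an unadjusted p under 0.05, against 7.11% of all genes), and the median was -0.13. Both AMY values were higher in 5 and both PFC values in 0, beside the same 17.9% and 8.76%. Their largest differences, Cct3 at 1630 and 2904 against 3933 and 2790 and Pdia3 at 2779 and 4151 against 4898 and 4090, overlapped between regions. The PFC cocaine array was the lowest of the 4 for Rpsa, Rpl3, Cct3 and Pdia3, and it is the array with the most zeros.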
